A study of Mus musculus with 4 samples.

Results

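Enzymes and pumps that clear foreign compounds, together with antioxidant genes and the sensors that control both, were examined in the crypts of WT and Vil-CREPTKO mice. The members were the protein-coding genes whose symbols begin with Gsta, Gstm, Gstp, Gstt, Ugt1a, Ugt2, Sult1, Cyp1, Cyp2b, Cyp2c, Cyp2d, Cyp2j, Cyp2s, Cyp3a, Ces1, Ces2 or Abcc, and 15 genes chosen by name (Ephx1, Ephx2, Nqo1, Gclc, Gclm, Txnrd1, Hmox1, Srxn1, Nfe2l2, Keap1, Nr1i2, Nr1i3, Ahr, Abcb1a and Abcg2). A member also needed at least 40 counts over the 4 libraries. Of 53845 genes in the table, 137 matched by name and 94 reached this minimum. The other 43 genes stayed below it, and 19 of these had 0 counts in all 4 libraries. The members closest to the minimum were Cyp2j11 with 46 counts and Ugt2b1 with 47, and the genes just outside were Cyp2c40 with 36 and Cyp2d10 with 33. The name rule also took in Cyp17a1, which makes steroids, and Abcc8, a subunit of a potassium channel. All 94 members passed the filter on low counts and were tested among 17504 genes.

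Foreign compounds are cleared in steps. Cytochrome P450 enzymes oxidise them and esterases and epoxide hydrolases split them, then transferases attach glutathione, glucuronic acid or sulfate, and ABC transporters pump the products out of the cell. In the intestine this system meets drugs and dietary chemicals before they reach the blood, mainly in the absorptive enterocytes. The nuclear receptors PXR (Nr1i2) and CAR (Nr1i3), the aryl hydrocarbon receptor (Ahr) and the transcription factor NRF2 (Nfe2l2), which KEAP1 holds in check, switch on many of these genes when they sense chemicals or oxidants.

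RNA-seq was performed on small intestinal crypts, the epithelial pits that house the stem cells, from mice of the C57BL/6 background. The 2 WT libraries were labelled as wild type. The 2 Vil-CREPTKO libraries came from mice in which Cre, driven by the villin promoter in the intestinal epithelium, deletes floxed exon 3 of Rprd1b, the gene for the RNA polymerase II-binding protein CREPT. Age, sex and the alleles carried by the WT mice were not given for each library, and no treatment was named. Villi were filtered out after release with EDTA, yet enterocyte genes were abundant in all 4 libraries. Libraries held 47241049 to 49369315 counts, and levels are given as CPM, counts scaled to a common library total after TMM normalisation. Rprd1b was measured at 60.5 and 61.6 CPM in WT and at 26.3 and 29.0 CPM in Vil-CREPTKO, with a log2 fold change of -1.14 (SE 0.12, adjusted p = 0.0041), although counts over the whole gene do not test exon 3 alone. WT replicate 2 stood apart by its abundant Xist (863 CPM) and its lack of counts on Y-linked genes. Elsewhere Xist stayed between 0.299 and 0.529 CPM, and the Y-linked genes summed to 148 to 164 CPM. The summed level of 15 enterocyte markers was 23359 and 30816 CPM in WT and 38902 and 24999 CPM in Vil-CREPTKO. Since the samples were bulk crypts, more cells of a type and more RNA per cell cannot be told apart.

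The difference between genotypes in these genes leaned upward. Of the 94 members, 6 rose in Vil-CREPTKO crypts: Ephx1, Gsta1, Gsta2, Gsta4, Gstm1 and Ces1f. No member fell at an adjusted p under 0.05 in edgeR's quasi-likelihood test. The 6 made up 6.38% of the members, beside 0.423% of all genes tested that were called higher and 2.29% that were called lower. With an absolute log2 fold change over 1 also required, Ephx1, Gsta1 and Gsta2 remained, 3.19% of the members beside 1.64% of all genes in either direction. At an unadjusted p under 0.05 there were 30 members, 27 higher and 3 lower, which was 31.9% beside 14.3% of all genes. Of all genes at this threshold, 786 were higher and 1709 lower. In DESeq2 15 members were called higher and 0 lower, in a fit that called 1.04% of all genes higher. The log2 fold change was above 0 in 72 members and below 0 in 22, with a median of 0.31 beside -0.0060 over all genes tested.

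The 2 libraries of each group were not alike in these genes, and the count of 6 depended on them. The 94 members summed to 7126 and 8743 CPM in WT and to 12098 and 9623 CPM in Vil-CREPTKO. Vil-CREPTKO replicate 1 was the highest library for 55 members, 58.5% beside 26.3% of all genes tested, and WT replicate 1 was the lowest for 43, 45.7% beside 23.3%. The CPM values of the groups did not overlap for 48 members, 51.1% beside 45.1% of all genes, with Vil-CREPTKO above WT in 40 and below it in 8. This split by direction was not counted over all genes. The number called higher was 10 or 12 when WT replicate 1 or WT replicate 2 was left out, and 6 or 19 when Vil-CREPTKO replicate 1 or Vil-CREPTKO replicate 2 was. The share of all genes called higher also moved, to 0.772%, 0.555%, 0.43% and 1.26% in these 4 fits. With an absolute log2 fold change over 1 also required, the share of all genes was not computed for these fits, so no number of members is given. The median log2 fold change was 0.15 without Vil-CREPTKO replicate 1 and between 0.25 and 0.48 without each of the others. Cyp1a1 was the only member called lower with any library left out, when Vil-CREPTKO replicate 1 was missing.

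**Figure D1:**
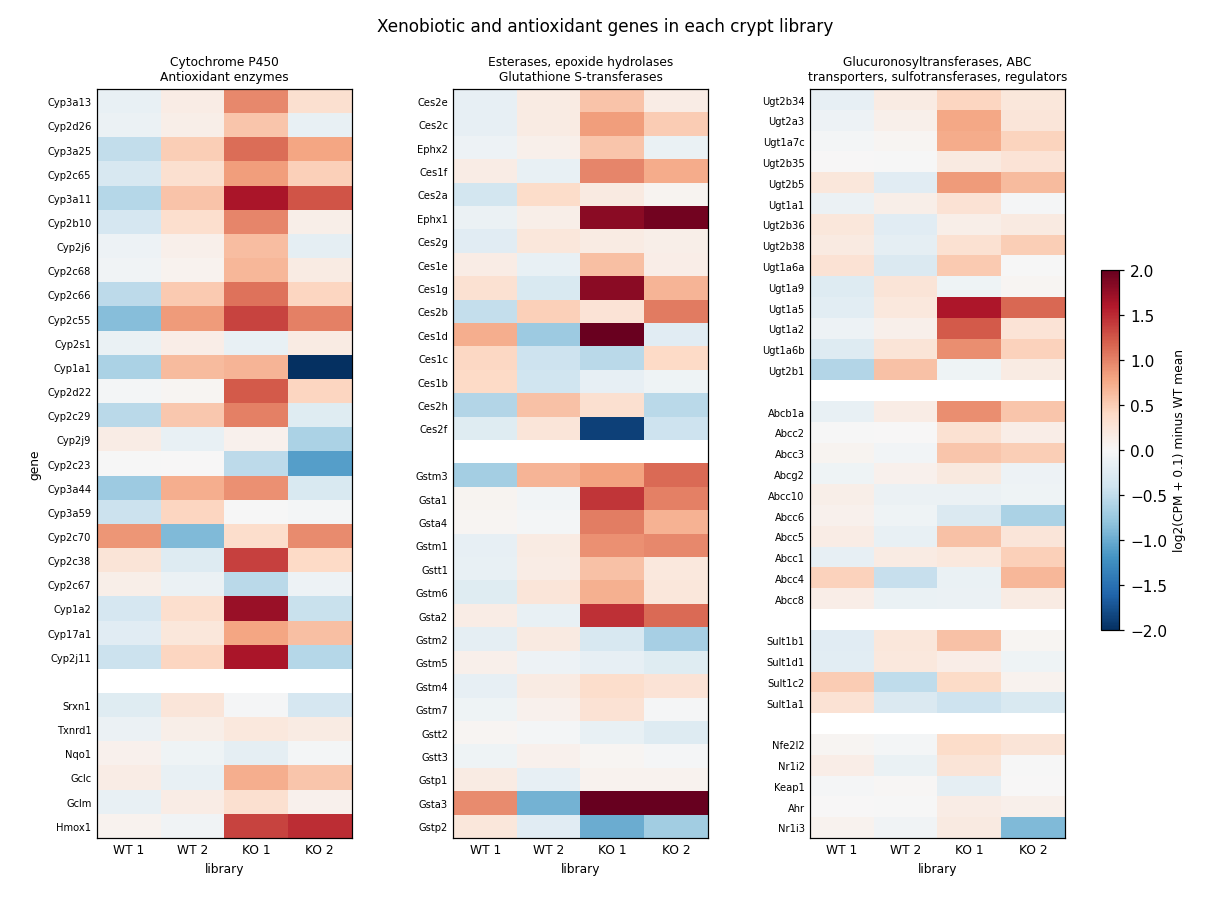
Level of each of the 94 members (rows, grouped by role) in each library (columns), as log2(CPM + 0.1) minus the mean of the 2 WT libraries, where red is higher and blue is lower and the scale stops at 2.0 in either direction. Ephx1, the alpha-class Gst genes, Gstm1 and Ces1f are red in both Vil-CREPTKO libraries, while many cytochrome P450 genes are redder in Vil-CREPTKO replicate 1 than in replicate 2 and also differ between the WT libraries.

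Glutathione S-transferases held most of the members that rose. These enzymes join glutathione to electrophiles, and 4 of 16 measured members rose, beside 0.423% of all genes called higher. At an unadjusted p under 0.05, 8 of the 16 were higher and 1 was lower, beside 14.3% of all genes in either direction. Gsta1, an alpha-class transferase (chr9:78230656-78242684, plus strand, GRCm38), was measured at 90.8 and 84.4 CPM in WT and at 236 and 177 CPM in Vil-CREPTKO. Both Vil-CREPTKO libraries lay above both WT libraries, and the log2 fold change was 1.24 (SE 0.17, adjusted p = 0.0078). Gsta2 lies nearby (chr9:78331018-78355788, minus strand) and was measured at 9.91 and 8.05 CPM in WT and at 24.8 and 19.7 CPM in Vil-CREPTKO, with a log2 fold change of 1.31 (SE 0.19, adjusted p = 0.010). Gsta4 (chr9:78182774-78209349, plus strand) conjugates aldehydes formed when lipids are oxidised. Its level was 79.1 and 75.6 CPM in WT and 158 and 126 CPM in Vil-CREPTKO, with a log2 fold change of 0.88 (SE 0.14, adjusted p = 0.019). Gstm1, a mu-class transferase (chr3:108012255-108017973, minus strand), was at 51.2 and 64.0 CPM in WT and at 108 and 112 CPM in Vil-CREPTKO, with a log2 fold change of 0.93 (SE 0.14, adjusted p = 0.011). For each of the 4 genes the groups did not overlap, and the call held with any library left out.

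Some of these genes share sequence with close relatives, which limits how their reads could be assigned. Of the 50-base windows in the longest transcript of Gsta1, 89.7% also occur in another gene, 82.9% in Gm3776. For Gsta2 the share was 64.2%, for Gstm1 it was 23.1%, and for Gsta4 it was 0. How reads of such windows were assigned was not tested. Gm3776, looked up for its sequence after the values of Gsta1 were seen, had 26.7 and 22.3 CPM in WT and 74.7 and 53.1 CPM in Vil-CREPTKO. The alpha-class members together summed to 185 and 169 CPM in WT and to 434 and 337 CPM in Vil-CREPTKO. Reads moved among these 4 members would leave that sum unchanged. Gm3776 is not part of the sum, and reads moved between it and Gsta1 would alter the sum.

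The other alpha-class member, Gsta3, had the largest fitted difference of the family without passing the test. It was named after its values were seen. Its level was 5.35 and 1.38 CPM in WT and 15.5 and 14.3 CPM in Vil-CREPTKO, with a log2 fold change of 2.14 (SE 0.48, adjusted p = 0.060). The WT libraries differed more from each other than the Vil-CREPTKO libraries did. Gsta3 passed in 10 of the 14 settings tried, among them all 4 fits with a library left out. Gstm3, the most abundant Gst gene per kilobase of exon in both genotypes, was at 104 and 266 CPM in WT and at 291 and 366 CPM in Vil-CREPTKO, with a log2 fold change of 0.83 (SE 0.36, adjusted p = 0.35). Without WT replicate 2 its log2 fold change was 1.66 (adjusted p = 0.00086), so this gene passed or missed the test according to that library. Members of the mu, pi and theta classes at lower levels were mixed in sign, from 0.47 for Gstm6 to -0.50 for Gstm2 and -0.97 for Gstp2, and none of these passed.

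Hydrolases were the other role with members that rose. Ephx1, the microsomal epoxide hydrolase, converts reactive epoxides to diols (chr1:180976210-181020904, minus strand). It was measured at 16.5 and 19.4 CPM in WT and at 62.7 and 68.4 CPM in Vil-CREPTKO, a ratio of the means of 3.65. The log2 fold change was 1.87 (SE 0.14, adjusted p = 0.0011), and it ranged from 1.75 to 1.99 with each library left out. Its transcript shared 1.89% of its windows with another gene. Ephx2, the soluble epoxide hydrolase that acts on fatty acid epoxides, was at 248 and 284 CPM in WT and at 391 and 241 CPM in Vil-CREPTKO, with a log2 fold change of 0.25 (adjusted p = 0.69). The 2 epoxide hydrolases therefore stood on different sides of the test, although the difference between them was not itself tested.

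Carboxylesterases cut ester and amide bonds of drugs and lipids. Ces1f (chr8:93256236-93279747, minus strand) was measured at 169 and 139 CPM in WT and at 301 and 257 CPM in Vil-CREPTKO, with a log2 fold change of 0.86 (SE 0.16, adjusted p = 0.031). The groups did not overlap, but the call was lost when WT replicate 2 was left out (log2 fold change 0.72, adjusted p = 0.13) and when Vil-CREPTKO replicate 1 was (0.74, adjusted p = 0.058). Ces2e, the most abundant hydrolase per kilobase in both groups, was at 537 and 671 CPM in WT and at 889 and 667 CPM in Vil-CREPTKO, with a log2 fold change of 0.37 (adjusted p = 0.51). Ces2c was at 173 and 217 CPM in WT and at 346 and 276 CPM in Vil-CREPTKO, with a log2 fold change of 0.67 (SE 0.18, adjusted p = 0.11), and 42.2% of its windows occur in another gene. Of the 15 hydrolases 2 rose, beside 0.423% of all genes called higher, 11 had a log2 fold change above 0 and the median was 0.37.

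**Figure D2:**
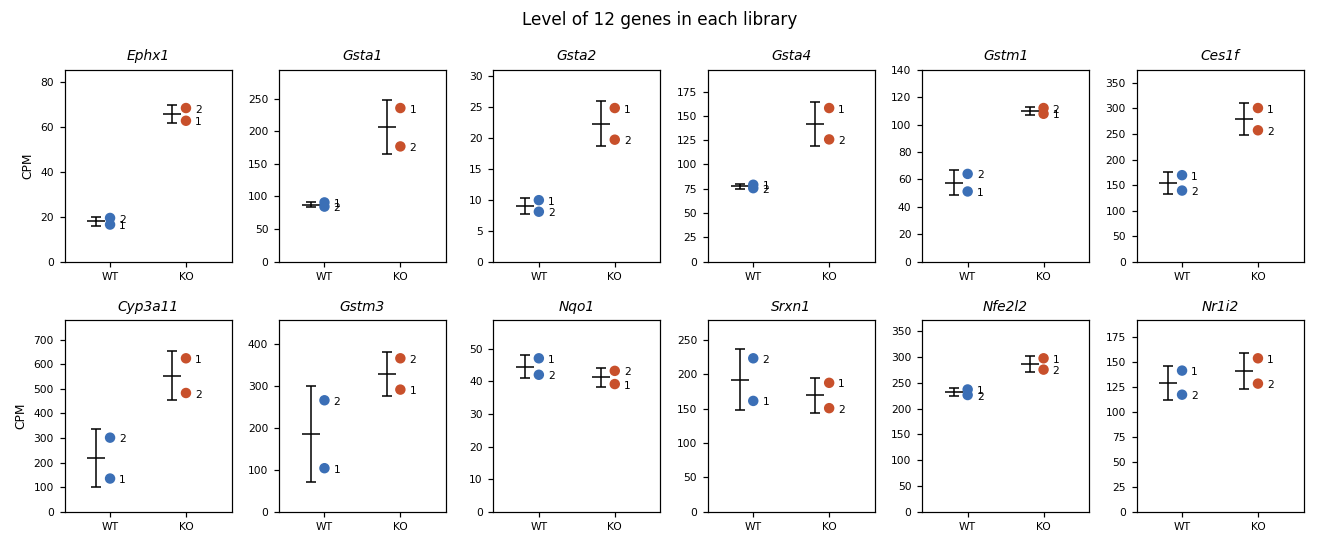
CPM of 12 genes in each library (points, numbered by replicate; y axis from 0), with the mean and SD of the 2 libraries of a group beside them; KO stands for Vil-CREPTKO. The 6 genes of the upper row rose and their groups are apart, whereas Cyp3a11 and Gstm3 spread widely in WT and Nqo1, Srxn1 and Nr1i2 overlap between groups.

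Promoters of members that rose are printed so that their sequences can be compared. RefSeq promoter windows on GRCm38.p6 were matched for 77 of the 94 members and for 4 of the 6 that rose. In each, 3 motifs were searched on both strands in 300 bases, 250 before and 50 after the transcript start: the antioxidant response element TGACNNNGC, bound by NRF2, the xenobiotic response element core GCGTG, bound by the aryl hydrocarbon receptor, and the AGGTCA element, bound by nuclear receptors. The sequences run from 250 bases before to 10 bases after the start in the direction of transcription, and capitals mark the first 2 motifs. Gsta1, Gsta2, Gstm1 and Ephx1 are shown because they rose, and Gsta3 and Gclm because they hold an antioxidant response element.
Gsta1, chr9:78230419-78230678, plus strand: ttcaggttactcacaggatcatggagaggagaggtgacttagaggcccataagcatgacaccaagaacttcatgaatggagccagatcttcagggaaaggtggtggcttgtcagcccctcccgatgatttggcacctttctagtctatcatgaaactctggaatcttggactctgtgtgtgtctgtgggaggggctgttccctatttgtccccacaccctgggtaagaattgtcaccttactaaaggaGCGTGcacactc
Gsta2, chr9:78347136-78347395, minus strand: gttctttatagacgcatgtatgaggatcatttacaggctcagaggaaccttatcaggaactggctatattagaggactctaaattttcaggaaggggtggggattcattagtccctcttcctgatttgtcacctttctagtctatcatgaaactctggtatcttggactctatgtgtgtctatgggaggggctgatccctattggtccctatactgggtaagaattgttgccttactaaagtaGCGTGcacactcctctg
Gstm1, chr3:108017964-108018223, minus strand: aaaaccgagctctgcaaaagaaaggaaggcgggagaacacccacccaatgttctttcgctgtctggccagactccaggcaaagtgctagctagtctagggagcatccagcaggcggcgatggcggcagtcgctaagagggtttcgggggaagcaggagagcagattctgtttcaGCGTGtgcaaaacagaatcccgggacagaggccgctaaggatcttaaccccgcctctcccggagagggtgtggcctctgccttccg
Ephx1, chr1:181017560-181017819, minus strand: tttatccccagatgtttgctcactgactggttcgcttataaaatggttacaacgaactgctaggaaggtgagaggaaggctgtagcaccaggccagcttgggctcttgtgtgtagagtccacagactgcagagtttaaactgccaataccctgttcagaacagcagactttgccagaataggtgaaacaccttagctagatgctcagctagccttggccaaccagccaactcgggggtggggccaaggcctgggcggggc
Gsta3, chr1:21240335-21240594, plus strand: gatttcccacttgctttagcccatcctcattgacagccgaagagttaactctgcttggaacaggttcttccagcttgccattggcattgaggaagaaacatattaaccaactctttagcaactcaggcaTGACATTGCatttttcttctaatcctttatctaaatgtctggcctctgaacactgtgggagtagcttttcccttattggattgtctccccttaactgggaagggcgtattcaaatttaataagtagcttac
Gclm, chr3:122245307-122245566, plus strand: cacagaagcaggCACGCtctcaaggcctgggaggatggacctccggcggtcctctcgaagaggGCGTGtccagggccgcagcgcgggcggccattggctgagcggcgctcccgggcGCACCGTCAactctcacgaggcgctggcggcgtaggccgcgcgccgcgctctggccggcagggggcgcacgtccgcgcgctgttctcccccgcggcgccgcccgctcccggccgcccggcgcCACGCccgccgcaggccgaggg

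The printed windows of Gsta1 and Gsta2 were identical at 194 of 271 aligned columns (71.6%). GCGTG began 2 bases before the start in Gsta1, 7 bases before it in Gsta2 and 76 bases before it in Gstm1, and was not among the letters of the Ephx1 window. Across members it was found in 19 of 77 (24.7%) beside 32.4% of all 32851 windows. A member was counted if any of its windows held the motif, with 92 windows for the 77 members. The share of all windows counts each window by itself, so the shares of members and of windows are in unlike units. The antioxidant response element was found in 14 members (18.2%) beside 12.4% of all windows, including Gclm, Srxn1, Txnrd1, Nfe2l2, Abcc2 and Gsta3, and in 0 of the 4 matched members that rose. In Gsta3 it began 121 bases before the start and in Gclm 134 bases before it on the opposite strand. AGGTCA was found in 20 members (26%) beside 16.3% of all windows, among them Cyp3a11, Cyp3a25, Abcc2 and, in a second window of that gene, Gstm1. These matches describe letters in the windows only.

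None of the 24 cytochrome P450 genes measured passed the test, although most had a positive difference. Their median log2 fold change was 0.52 and 19 were above 0. An unadjusted p under 0.05 was reached by 6 higher and 1 lower, beside 14.3% of all genes in either direction. Cyp3a11, a drug-metabolising enzyme and a classical target of PXR, was at 135 and 302 CPM in WT and at 625 and 483 CPM in Vil-CREPTKO. The groups did not overlap, yet the WT libraries differed by 2.23-fold, and the log2 fold change was 1.34 (SE 0.33, adjusted p = 0.082). Without WT replicate 2 the log2 fold change was 2.03 (adjusted p = 0.00035), and without Vil-CREPTKO replicate 2 it was 1.52 (adjusted p = 0.025). Cyp3a25 followed the same order of libraries, with 103 and 204 CPM in WT and 315 and 251 CPM in Vil-CREPTKO, with a log2 fold change of 0.88 (SE 0.28, adjusted p = 0.18), and reached 1.45 (adjusted p = 0.0019) without WT replicate 2. Cyp3a13, the most abundant P450 gene per kilobase, was at 535 and 664 CPM in WT and at 1155 and 747 CPM in Vil-CREPTKO, with a log2 fold change of 0.67 (SE 0.24, adjusted p = 0.24). The 5 Cyp3a members summed to 775 and 1173 CPM in WT and to 2099 and 1484 CPM in Vil-CREPTKO.

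Further P450 genes also differed between libraries of the same genotype. Cyp2d22 was at 23.7 and 24.8 CPM in WT and at 56.6 and 32.8 CPM in Vil-CREPTKO, with a log2 fold change of 0.88 (adjusted p = 0.091). Cyp2d26 was at 201 and 234 CPM in WT and at 318 and 195 CPM in Vil-CREPTKO, and its groups overlapped. Cyp1a1, the enzyme that reports activity of the aryl hydrocarbon receptor and was looked at after its values were seen, was at 26.1 and 63.1 CPM in WT and at 64.9 and 9.84 CPM in Vil-CREPTKO. It was the P450 gene with the widest gap between the Vil-CREPTKO libraries among those above 1 CPM in every library, and its difference between genotypes (log2 fold change -0.26, SE 0.69, adjusted p = 0.92) was smaller than its error. In all, 31 members differed by more than 1.5-fold between the WT libraries, 20 of them higher in replicate 2, and 25 differed by as much between the Vil-CREPTKO libraries, 20 of them higher in replicate 1.

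Glucuronosyltransferases make drugs, bilirubin and hormones soluble by adding glucuronic acid, and none of the 14 measured passed the test. Their median log2 fold change was 0.36, and the groups did not overlap in 9, which was 64.3% beside 45.1% of all genes. Ugt2b34, the most abundant per kilobase, was at 582 and 734 CPM in WT and at 879 and 761 CPM in Vil-CREPTKO, with a log2 fold change of 0.32 (adjusted p = 0.54). Ugt1a7c was at 166 and 175 CPM in WT and at 283 and 232 CPM in Vil-CREPTKO, with a log2 fold change of 0.60 (SE 0.15, adjusted p = 0.096). Genes of the Ugt1a locus share their last exons, and 38.9% to 80.7% of their windows occurred in another gene of the table, so the split between them is uncertain. The 7 Ugt1a members together summed to 198 and 209 CPM in WT and to 325 and 265 CPM in Vil-CREPTKO. Ugt2b5 was at 20.9 and 15.2 CPM in WT and at 32.2 and 27.6 CPM in Vil-CREPTKO, with a log2 fold change of 0.73 (SE 0.18, adjusted p = 0.085). Ugt2a3 was at 91.3 and 106 CPM in WT and at 168 and 117 CPM in Vil-CREPTKO, with a log2 fold change of 0.53 (adjusted p = 0.21).

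None of the 4 sulfotransferases, which add sulfate to phenols and hormones, passed the test. Sult1b1 was at 224 and 308 CPM in WT and at 394 and 270 CPM in Vil-CREPTKO, and Sult1d1 was at 222 and 299 CPM in WT and at 284 and 242 CPM in Vil-CREPTKO. For both the groups overlapped. Sult1a1 and Sult1c2 were at 3.58 CPM or less in every library. Their log2 fold changes were 0.32, 0.01, -0.41 and 0.15 in the order Sult1b1, Sult1d1, Sult1a1 and Sult1c2, with adjusted p from 0.60 to 0.99.

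Among the ABC transporters, which pump drugs and conjugates out of cells, none of 10 passed the test and the median log2 fold change was 0.24. Abcb1a, the P-glycoprotein of the apical membrane, was at 248 and 307 CPM in WT and at 524 and 403 CPM in Vil-CREPTKO, with a log2 fold change of 0.74 (SE 0.19, adjusted p = 0.096). Abcc3, a pump of the basolateral membrane, was at 124 and 115 CPM in WT and at 175 and 168 CPM in Vil-CREPTKO, with a log2 fold change of 0.53 (SE 0.13, adjusted p = 0.079). Both pumps had groups that did not overlap. Abcc2, an apical pump of conjugates, was at 485 and 494 CPM in WT and at 602 and 534 CPM in Vil-CREPTKO, with a log2 fold change of 0.21 (adjusted p = 0.64). Abcg2, the apical breast cancer resistance protein, was named after its values were seen and had a log2 fold change of 0.05 (SE 0.14).

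None of the 6 antioxidant members, the genes most often read as a response to oxidants, passed the test, and their median log2 fold change was 0.19. Nqo1, a quinone reductase and standard NRF2 target, was at 47.1 and 42.0 CPM in WT and at 39.2 and 43.2 CPM in Vil-CREPTKO, with a log2 fold change of -0.11 (SE 0.13, adjusted p = 0.76). Srxn1, which repairs oxidised peroxiredoxins, was at 161 and 223 CPM in WT and at 188 and 151 CPM in Vil-CREPTKO, with a log2 fold change of -0.18 (SE 0.19, adjusted p = 0.73). The sign of both turned with a correction for GC content and length (0.02 in each), but that fit also moved the median of all genes to 0.15. No direction is given for them. Txnrd1, the cytosolic thioredoxin reductase, was at 280 and 330 CPM in WT and at 350 and 340 CPM in Vil-CREPTKO, with a log2 fold change of 0.18 (SE 0.16, adjusted p = 0.69).

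Glutamate-cysteine ligase makes the precursor of glutathione, and its subunits differed in how close they came to the threshold. The catalytic subunit Gclc was at 72.8 and 58.9 CPM in WT and at 108 and 96.6 CPM in Vil-CREPTKO, with a log2 fold change of 0.64 (SE 0.14, adjusted p = 0.054), and the groups did not overlap. It passed when WT replicate 1 was left out (adjusted p = 0.030) and when Vil-CREPTKO replicate 2 was (adjusted p = 0.023). The modifier subunit Gclm was at 86.4 and 106 CPM in WT and at 120 and 101 CPM in Vil-CREPTKO, with a log2 fold change of 0.20 (SE 0.15, adjusted p = 0.62). Hmox1, which breaks down heme, was near the lower limit of measurement, at 0.548 and 0.488 CPM in WT and at 1.47 and 1.61 CPM in Vil-CREPTKO, with a log2 fold change of 1.57 (SE 0.42, adjusted p = 0.11). A count of 3 corresponds to 0.0588 to 0.069 CPM in these libraries.

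None of the 5 sensors and regulators passed the test. Nfe2l2 (NRF2) was at 237 and 226 CPM in WT and at 297 and 275 CPM in Vil-CREPTKO, with a log2 fold change of 0.31 (SE 0.14, adjusted p = 0.39), and its inhibitor Keap1 was at 53.8 and 55.6 CPM in WT and at 48.4 and 55.1 CPM in Vil-CREPTKO. Nr1i2 (PXR) was at 142 and 117 CPM in WT and at 154 and 129 CPM in Vil-CREPTKO, with a log2 fold change of 0.12 (SE 0.15, adjusted p = 0.79). Ahr had a log2 fold change of 0.13 (SE 0.12). Nr1i3 (CAR) was the least abundant, at 14.9 and 13.4 CPM in WT and at 16.1 and 7.68 CPM in Vil-CREPTKO, with a log2 fold change of -0.26 (SE 0.30). Nr1i3 shares 4691 bases with Tomm40l on the opposite strand. Transcript levels do not report whether these proteins were active.

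**Figure D3:**
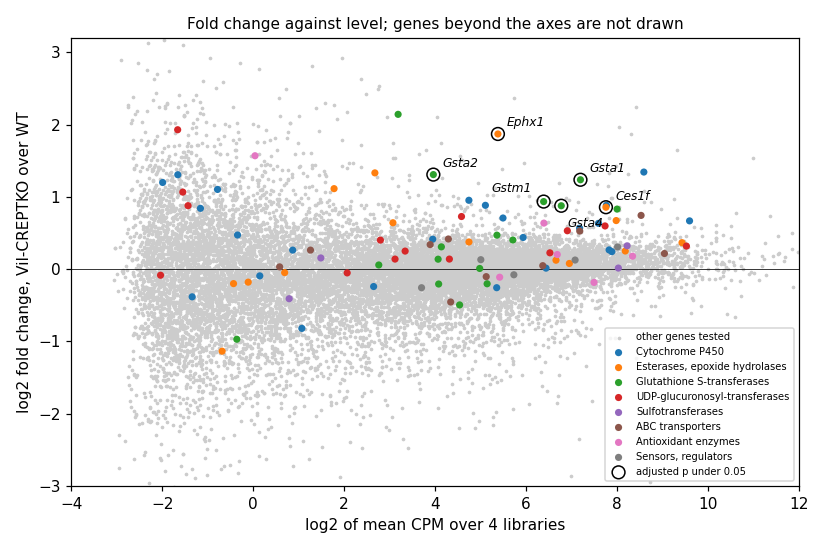
Log2 fold change of Vil-CREPTKO over WT (y axis) against log2 of the mean CPM over 4 libraries (x axis) for the genes tested, with members coloured by role and circles around the 6 with an adjusted p under 0.05. The circled genes lie between a log2 fold change of 0.86 (Ces1f) and 1.87 (Ephx1), and members of similar or larger difference that are not circled, such as Gsta3 at 2.14, had a larger error.

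Levels per kilobase of exon placed the members that rose below the leading genes of WT crypts. In WT the highest means were those of Ces2e at 224 CPM per kb, Cyp3a13 at 203, Ugt2b34 at 153 and Gstm3 at 141, and Ephx1 was at 9.20. In Vil-CREPTKO the order at the top was Cyp3a13 at 322, Ces2e at 288, Gstm3 at 251 and Gsta1 at 216 CPM per kb, and Ephx1 was at 33.6. Since libraries of a group spread widely for Cyp3a13, Ces2e and Gstm3, the order among these leading genes was not resolved. At the other end, 14 members had a mean under 1 CPM, and 29 were above 100 CPM.

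Genes of the same pathways outside the name rule were read from 2 further lists. Of 51 tested genes of xenobiotic metabolism and transport, 4 rose and 1 fell, beside 0.423% of all genes called higher and 2.29% called lower. Akr1b8, an aldo-keto reductase that reduces aldehydes, was at 9.36 and 3.09 CPM in WT and at 24.8 and 29.0 CPM in Vil-CREPTKO, with a log2 fold change of 2.11 (adjusted p = 0.034). Its relative Akr1b7 was at 31.2 and 34.3 CPM in WT and at 114 and 67.6 CPM in Vil-CREPTKO, with a log2 fold change of 1.47 (adjusted p = 0.012). Mgst2, a membrane-bound glutathione transferase, was at 175 and 144 CPM in WT and at 345 and 286 CPM in Vil-CREPTKO, with a log2 fold change of 0.98 (adjusted p = 0.022). Slc22a5, which carries carnitine and organic cations, was at 49.2 and 52.8 CPM in WT and at 92.6 and 75.8 CPM in Vil-CREPTKO, with a log2 fold change of 0.72 (adjusted p = 0.027). Cyp2e1, a P450 that oxidises ethanol and small solvents, was at 3.72 and 3.51 CPM in WT and at 1.22 and 1.30 CPM in Vil-CREPTKO, with a log2 fold change of -1.52 (adjusted p = 0.035). Thus not every gene of the pathway that passed the test was higher.

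Beside 0.423% of all genes called higher and 2.29% called lower, 0 of 37 further genes of the NRF2 and antioxidant system rose and 1 fell. This was Txnrd2, the mitochondrial thioredoxin reductase, at 9.87 and 11.6 CPM in WT and at 4.51 and 2.83 CPM in Vil-CREPTKO, with a log2 fold change of -1.55 (adjusted p = 0.020). The median log2 fold change was 0.08 in this list and 0.23 in the xenobiotic list, beside -0.0060 over all genes tested. The number of genes of both lists that passed, 6 as reported, changed when a library was left out, as did the share of all genes called.

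Markers of the cell types in the preparation were read beside these results. None of the 15 enterocyte markers passed the test, all were present, and the groups did not overlap in 1, which was 6.67% beside 45.1% of all genes. Their sum was highest in Vil-CREPTKO replicate 1, the library that was also highest for 55 members. In Vil-CREPTKO replicate 2 it was 24999 CPM, between WT replicate 1 (23359 CPM) and WT replicate 2 (30816 CPM). The 94 members summed to 7126 and 8743 CPM in WT and to 12098 and 9623 CPM in Vil-CREPTKO. The sulfotransferases summed to 452 and 611 CPM in WT and to 683 and 517 CPM in Vil-CREPTKO. The sum of the proximal gut markers was 3368 and 4518 CPM in WT and 6772 and 4397 CPM in Vil-CREPTKO, with 0 of 8 tested passing. Fabp1 and Lct are on both this list and the enterocyte list. Fabp1 alone was at 1745 and 2215 CPM in WT and at 4196 and 2380 CPM in Vil-CREPTKO. The median log2 fold change of the list was 0.0011, with 4 above 0 and 4 below. Gata4, Onecut2 and Pdx1 were lowest in Vil-CREPTKO replicate 1, whereas Fabp1, Ada and Cybrd1 were highest in it. Tuft cell markers summed to 257 and 334 CPM in WT and to 162 and 155 CPM in Vil-CREPTKO. Of these, 4 of 8 tested were lower, beside 2.29% of all genes, and no tuft cell marker among the 9 was at 0 in every library. Goblet cell markers summed to 8860 and 9534 CPM in WT and to 7529 and 7453 CPM in Vil-CREPTKO, with 0 of 8 passing. Enteroendocrine markers summed to 435 and 408 CPM in WT and to 515 and 588 CPM in Vil-CREPTKO, so that both Vil-CREPTKO libraries were above both WT libraries. None of these 8 passed, and 5 were higher at an unadjusted p under 0.05, beside 14.3% of all genes in either direction. Sums in the order WT replicate 1, WT replicate 2, Vil-CREPTKO replicate 1 and Vil-CREPTKO replicate 2 were 6170, 7556, 5882 and 8068 CPM for Paneth cell markers, 254, 181, 197 and 148 CPM for immune markers and 7.46, 8.55, 20.1 and 3.79 CPM for stromal markers, with none passing. Distal small intestine markers summed to 47.8 to 51.2 CPM with none passing, and colon markers to 214 to 257 CPM with 1 of 4 tested lower. The 6 hepatocyte markers summed to 1650, 1913, 1352 and 1819 CPM in the same order, nearly all of it from Cps1 (1350 to 1910 CPM), a urea cycle enzyme that the small intestine also makes. Of the other hepatocyte markers, Alb was at 0.235 to 0.391 CPM, Ttr at 1.36 to 3.86 CPM and Fga at 0, and none of the 4 tested passed. These sums are descriptions, and the part of cell composition in the members' differences was not tested.

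**Figure D4:**
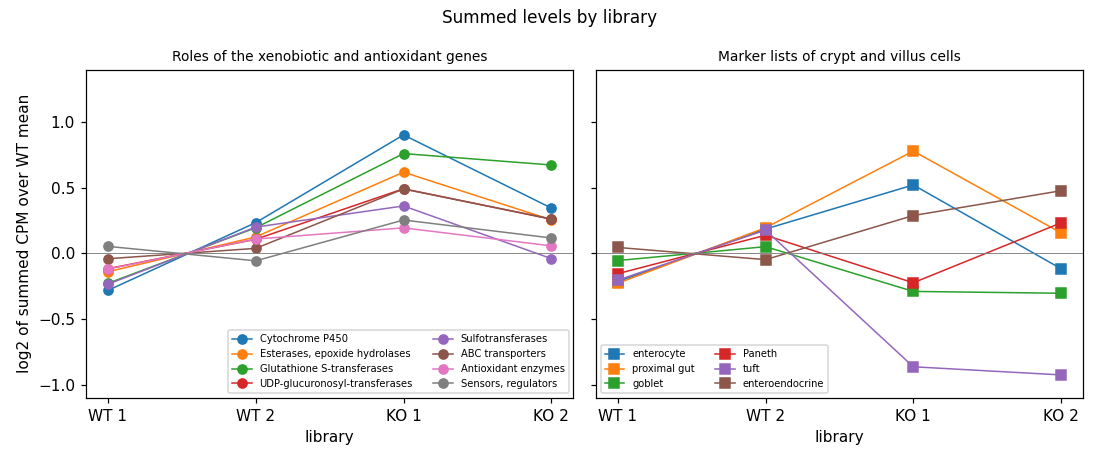
Log2 of the summed CPM of each role (left) and of each marker list (right) in each library, relative to the mean of the 2 WT libraries; the lines only join points of the same list. The P450, glutathione S-transferase, enterocyte and proximal gut sums are all highest in Vil-CREPTKO replicate 1, and the enterocyte and proximal gut lists share Fabp1 and Lct. The glutathione S-transferase, P450 and enterocyte sums are at 0.76, 0.90 and 0.52 in Vil-CREPTKO replicate 1 and at 0.67, 0.35 and -0.12 in Vil-CREPTKO replicate 2.

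The glutathione S-transferase and P450 sums ordered the libraries alike, with both Vil-CREPTKO libraries above both WT libraries. The transferases summed to 559 and 749 CPM in WT and to 1108 and 1044 CPM in Vil-CREPTKO. The P450 genes summed to 1606 and 2297 CPM in WT and to 3649 and 2480 CPM in Vil-CREPTKO. These sums are a description, and the difference between roles was not tested. By Xist and the Y-linked genes, WT replicate 2 differed from WT replicate 1 and from both Vil-CREPTKO libraries, so sex was unequal between the genotypes by these marks. The part of sex in the members' differences was not tested beyond the values without WT replicate 2.

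**Figure D5:**
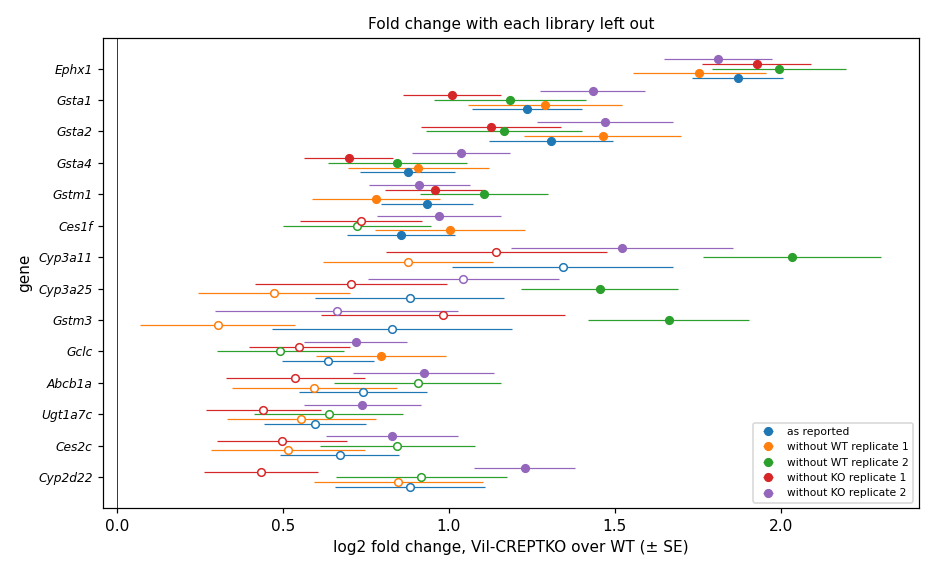
Log2 fold change of Vil-CREPTKO over WT with its SE (x axis) for 14 members (y axis), as reported and with each library left out; filled points had an adjusted p under 0.05. Ephx1, Gsta1, Gsta2, Gsta4 and Gstm1 are filled in every fit, Ces1f in 3 of the 5, and Cyp3a25 and Gstm3 only without WT replicate 2.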

How the data were processed

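Whole-number read counts per gene were taken from the table that the authors deposited, for 2 WT and 2 Vil-CREPTKO libraries grouped by their titles. The submitters' processing notes name CASAVA 1.8, Bowtie2, RSEM and GRCm38.p6; versions of Bowtie2 and RSEM, the annotation and the strand setting were not given in the sources used here. Symbols and coordinates came from GENCODE M21 (GRCm38), which matched 53360 of 53845 rows (99.1%). The study's methods state 2 biological replicates, but the labels do not tie libraries to mice, so p-values measure the spread between these libraries (common biological coefficient of variation 0.188).

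Counts were filtered with filterByExpr, scaled by TMM and fitted on all genes with the quasi-likelihood test of edgeR 4.0.16 in R 4.3.3 (two-sided, Benjamini-Hochberg adjustment over 17504 genes), after testing on simulated data. The fold change threshold of 1 on the log2 scale follows the study. DESeq2 1.42.0 was an alternative. Motif and marker lists are descriptions without a test. The members and lists were chosen with earlier results of these data known. Genes named were Rprd1b, members with an adjusted p under 0.05, all antioxidant and regulator members, in each other role the 3 highest per kilobase and the 2 of smallest p, and other pathway genes that passed; further names are given as chosen after their values were seen, or as ends of a range. Libraries of a group differed far beyond counting error (chi-square of 49.8 and 70.1 per gene) and were kept as separate samples.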

Additional observations from a re-analysis of the deposited data

How the results depend on the processing

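With 2 libraries a group, the number of members past the threshold was the value most open to the settings. The 6 members called higher became 15 with DESeq2, 26 with no filter on low counts, 9 with library-size scaling, 8 with at least 10 counts in every library, 7 with a GC and length correction and 6 with RLE or upper-quartile scaling. The share of all genes called higher, 0.423% as reported, was 1.04%, 1.15%, 0.56%, 0.495%, 0.526%, 0.383% and 0.354% in these fits. The 6 became 6 to 19 with each library left out, where the lone library of a group is assumed to vary like the other group. The 0 members called lower stayed at 0 to 1 with each library left out and at 0 in the other settings. Members with an absolute log2 fold change over 1, 3 as reported, numbered 5 with library-size scaling, 8 with no filter and 5 with the GC and length correction. The share of all genes past both thresholds was not computed in those fits, so these numbers have no background beside them. The 6 other pathway genes that passed became 10 with DESeq2, 11 with no filter and 4 to 10 with each library left out. The median log2 fold change of the members was 0.21 to 0.43 in the settings that kept all libraries, where that of all genes was -0.098 to 0.15. With each library left out it was 0.15 to 0.48 for the members and -0.027 to 0.011 for all genes. Ephx1, Gsta1, Gsta2, Gsta4 and Gstm1 passed in all 14 settings, the reported one included.

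The labels do not say whether replicate numbers pair the libraries. Same-numbered deviations from the group means had a correlation of 0.028 over 17504 genes. With 2 libraries a group this is a single value and cannot settle whether libraries were paired. A fit with the replicate block called 10 members higher, and the replicate block with the GC and length correction called 14, beside 0.606% and 1.41% of all genes called higher. Of these members, 5 and 11 had an absolute log2 fold change over 1, for which the share of all genes was not computed. In that last fit Ces1f lost its call (adjusted p = 0.073). The GC and length correction moved the median of all genes to 0.15 and the share of calls that were lower from 84.4% to 65%, or to 59.4% together with the block; the share was 73.6% with no filter. In the correction, the curve fitted to each library also takes up its general scale, and the TMM factors were then applied as well. How much of these shifts came from that was not tested, nor was the cause of the shift with no filter.

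Of the 94 members, 72 had a positive log2 fold change as reported, 65 with library-size scaling, 81 with block and correction and 60 to 73 with each library left out. The median of all genes moved too, from -0.0060 as reported to -0.098 with library-size scaling. It was 0.15 with the GC and length correction, with or without the block. Among the genes named by rule, the sign turned in some settings for 9, none of which had passed. Sult1d1 was -0.078 with library-size scaling and -0.019 with the GC and length correction, Keap1 was 0.17 with the correction and 0.18 with block and correction, Srxn1 was 0.022 and 0.039 in these fits and Nqo1 was 0.017 in both. With each library left out, Sult1d1 ranged from -0.19 to 0.25, Keap1 from -0.17 to 0.0082, Srxn1 from -0.40 to 0.070, Nr1i2 from -0.014 to 0.26, Sult1c2 from -0.28 to 0.77, Cyp2d26 from -0.16 to 0.56, Ephx2 from -0.14 to 0.56 and Nr1i3 from -0.89 to 0.19. Vil-CREPTKO replicate 1 was the library whose absence turned Keap1, Cyp2d26 and Ephx2. It also turned Sult1d1, Nr1i2 and Sult1c2, as did a WT library in each case. The absence of WT replicate 2 turned Srxn1, and that of Vil-CREPTKO replicate 2 turned Nr1i3.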
